A study of Penicillium oxalicum with 6 samples.

Results

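The 60 genes described here were abundant transcripts of *Penicillium oxalicum* that stood far below their parental level in a strain without *rsrC*. By the ratio of extremes given below they stood furthest below it among the candidates kept, while by mean some genes outside the list fell as far. They were selected on these same FPKM values. Of the 9822 genes listed, 1854 reached 100 FPKM in all libraries of the parental strain Δ*ku70*, where FPKM is the number of fragments of a gene scaled to its length and to all mapped fragments of the library. These were ranked by the lowest Δ*ku70* value divided by the highest Δ*rsrC* value plus 1 FPKM, and the first 60 were taken. Before ranking, 82 gene IDs were left out (the runs *POX_f08105* to *POX_f08149* and *POX_c04700* to *POX_c04731*, and *POX_a00573*, *POX_b02418*, *POX_a00279*, *POX_c03497* and *POX_e07192*), which removed 18 abundant genes and left 1836 candidates. With those IDs kept, 58 of the 60 genes would have been chosen again. The list therefore holds 3.27% of the candidates. The lower level of its genes in Δ*rsrC* is what chose them, so every difference between the strains is given for them as a description.

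The question behind the comparison is what the mycelium transcribes differently without *rsrC*, examined in the study as a regulator of starch-degrading enzymes. The series sets 3 libraries of the deletion mutant Δ*rsrC* against 3 of Δ*ku70*. Both strains lack *ku70*, a gene of non-homologous end joining whose loss raises the share of introduced DNA that integrates at its target, although the genotype label of the Δ*ku70* libraries reads WT and only their titles name Ku70. All 6 cultures spent 24 h in glucose medium and 24 h after transfer in a second medium, for which the labels name both Avicel, a cellulose, and raw starch, while the study's methods name a commercial corn starch. The study speaks of biological replicates of its strains and of several transformants per mutant, but the sources used here do not say which culture or transformant each Δ*rsrC* library came from, so part of the spread between libraries may be technical. The deletion strain carries the label POX00418. In the present numbering *rsrC* is *POX_a01508*. This gene was listed at 0 in all 3 Δ*rsrC* libraries, against 27.1, 30.3 and 39.0 FPKM in Δ*ku70*.

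The material was labelled mycelium. *brlA* (*POX_c03558*), the central activator of conidiation in *Aspergillus* and *Penicillium*, stood at 0.42 to 1.59 FPKM in Δ*rsrC* and 0.81 to 1.71 FPKM in Δ*ku70*. Between 8451 and 8535 genes reached 1 FPKM in a library, and relative depth, read from the lowest values, was 77.8% to 105% of that of Δ*ku70* replicate 1. This estimate is rough, as 29 to 62 genes set it in each of the other libraries. FPKM summed to more in each Δ*rsrC* library than in any Δ*ku70* library, so the comparisons were repeated after rescaling to equal sums. In bulk RNA, fewer cells of a type and less RNA per cell cannot be told apart.

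RsrC is a C2H2 zinc-finger protein, a class whose fingers bind DNA and that includes many fungal regulators of carbon use. A fungus that lives on a polymer depends on secreted enzymes and on the growth of its chitin-containing wall. Glycoside hydrolases of family GH18 include the chitinases that cut the wall polymer chitin, CBM63 modules occur in expansin-like proteins that loosen polysaccharide networks, family GT41 holds protein O-linked N-acetylglucosamine transferases, and squalene synthase makes the first dedicated intermediate of ergosterol. The annotation used here labels 3 of the 60 genes as carbohydrate-active enzymes with these family names and *POX_b01956* as a putative squalene synthetase. The roles above are general ones of the families, and no other gene of the 60 has such a label. It held an entry for 22 of them, 18 of which read hypothetical protein, and 38 had none. All 60 IDs matched the RefSeq gene table, and 0 of them overlapped another gene in it.

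Values per library stand in the order of replicates 1, 2 and 3. In Δ*rsrC* the mean of each gene was 16.8% to 48.9% of its mean in Δ*ku70*, with a median of 37.1%. Among the other 1794 abundant genes the median was 99.0%. Of the 60 genes, 10 fell to under 25%, 28 to between 25% and 40%, and 22 to 40% or more. The median of their mean levels was 74.3 FPKM in Δ*rsrC* and 200.4 FPKM in Δ*ku70*. In Δ*rsrC*, 37 of them were under 100 FPKM in every library, 16 were at 100 FPKM or more in every library, and 7 were on both sides of that level.

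As a share of all FPKM the 60 genes together made up 0.683% ± 0.0542 in Δ*rsrC* and 2.23% ± 0.168 in Δ*ku70* (SD, n = 3 libraries each). One gene, *POX_a00825*, made up part of both shares. Without it the shares were 0.500% ± 0.0276 in Δ*rsrC* and 1.65% ± 0.0653 in Δ*ku70*. Within a library the genes also moved down the order of levels, to a median rank of 2598 among all genes in Δ*rsrC*, against 1077.5 in Δ*ku70*. Among the 1000 most abundant genes there were 7 of them in Δ*rsrC* and 26 in Δ*ku70*.

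On the scale of log2(FPKM + 1), fitted with limma, the 60 differences of Δ*rsrC* minus Δ*ku70* ran from -2.52 to -1.03 with a median of -1.40. All 8605 tested genes had a median of -0.13 and the other abundant genes 0.00. At an adjusted p under 0.05 (limma, Benjamini-Hochberg over all tested genes), 60 of 60 were called lower, where 25.6% of all tested genes were called lower and 13.8% higher. With a log2 change of -1 or less as well, the count was 60 of 60, and 5.62% of all tested genes passed. These counts follow from the choice of the genes. Among the other 1794 abundant genes 365 (20.3%) were called lower, 358 higher, and 2.51% lower with such a change. Of all calls, 34.97% were higher in Δ*rsrC*, and this share was 16.9% after rescaling every library to the same sum (TPM), 52.2% with median-ratio scaling and 48.2% with quantile normalisation. The members' median less that of all genes was -1.27, and it lay between -1.38 and -1.23 under the scalings, filters and omissions of a library that were tried.

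**Figure D1:**
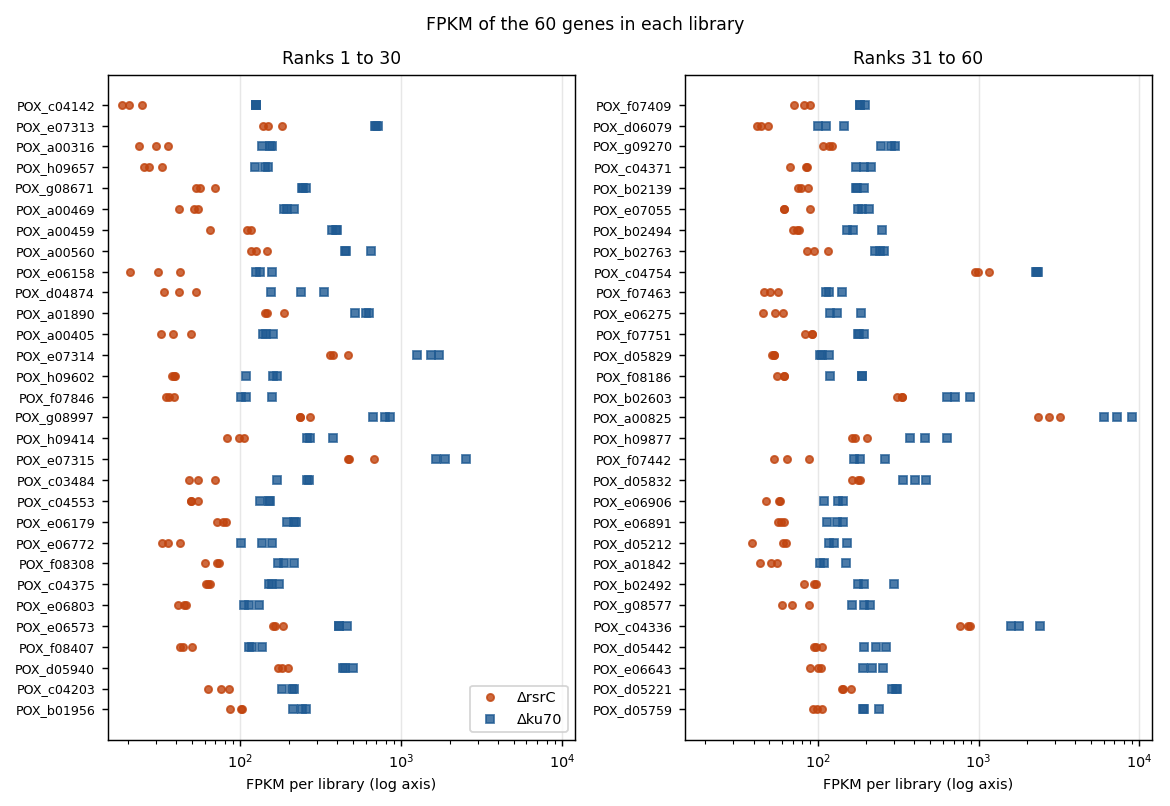
FPKM (log axis) of each of the 60 genes in each library, in the order of the ranking from the top, with circles for the 3 Δ*rsrC* libraries and squares for the 3 Δ*ku70* libraries. In every row the circles lie left of the squares, as the ranking required, and the gap narrows down the ranks from a ratio of 4.86 for *POX_c04142* to 1.78 for *POX_d05759*.

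**Figure D2:**
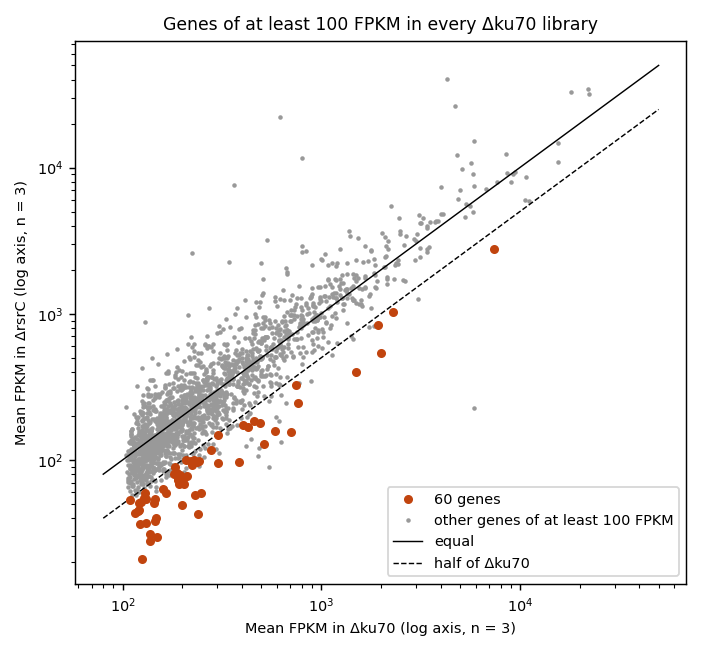
Mean FPKM in Δ*rsrC* (vertical, log axis) against mean FPKM in Δ*ku70* (horizontal, log axis) for the 1854 abundant genes, n = 3 libraries each, with the 60 genes in colour and the other 1794, the left-out IDs among them, in grey. All 60 lie below the dashed line of 50% of the Δ*ku70* level, and they span the range of levels up to 7451 FPKM in Δ*ku70*.

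Of the 4 genes with an annotation other than hypothetical protein, 3 are labelled as carbohydrate-active enzymes. *POX_a00459*, of family GH18, was at 109.9, 117 and 65.1 FPKM in Δ*rsrC*, against 394, 370.1 and 398 FPKM in Δ*ku70*. Δ*rsrC* replicate 3 was the lowest of these and the Δ*ku70* libraries lay close together, and the mean in Δ*rsrC* was 25.1% of that in Δ*ku70*. *POX_a00560*, of family GT41, was at 145, 125 and 116 FPKM in Δ*rsrC*, against 449.8, 451 and 647 FPKM in Δ*ku70*. Its Δ*ku70* replicate 3 stood above the other two, and its Δ*rsrC* mean was 24.98% of the Δ*ku70* mean. *POX_a00405*, with a CBM63 module, was at 49.6, 38.3 and 32.1 FPKM in Δ*rsrC*, against 144, 139 and 159.8 FPKM in Δ*ku70*, which left 27.1% of the Δ*ku70* mean. *POX_b01956*, annotated as a putative squalene synthetase, was at 85.9, 101 and 102 FPKM in Δ*rsrC*, against 256, 242 and 211 FPKM in Δ*ku70*. At 40.9% of the Δ*ku70* mean it fell less far than the others, and its ratio of 2.04 placed it at rank 30. The log2 changes were -2.03 (SE 0.22) for *POX_a00459*, -1.98 (SE 0.18) for *POX_a00560*, -1.88 (SE 0.17) for *POX_a00405* and -1.28 (SE 0.12) for *POX_b01956*.

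Other genes of these families could be found only in the annotation held, which has almost no genes of the letters d to h and lists genes that the study had called in at least 1 of its mutants. The counts are therefore not of whole families and not independent of these libraries. They also include the members themselves, which were chosen for being lower, and the families were looked up because of those members. In it GH18 had 7 tested genes, of which 3 (42.9%) were called lower, 1 (14.3%) higher and 3 neither, against 25.6% lower and 13.8% higher of all tested genes. Besides *POX_a00459*, the lower ones were *POX_a01845*, which also carries a GH85 module, at 6.51, 8.98 and 8.23 FPKM in Δ*rsrC*, against 20.3, 35.1 and 48.3 FPKM in Δ*ku70* (log2 -1.93, SE 0.30, limma adjusted p = 0.00455), and *POX_c04698* at 1.28, 1.41 and 0.590 FPKM in Δ*rsrC*, against 4.71, 11.2 and 7.69 FPKM in Δ*ku70* (log2 -2.04, SE 0.33, limma adjusted p = 0.00523). Both were far less abundant than *POX_a00459*. In the opposite direction, *POX_a00449* was at 72.1, 63.3 and 66.4 FPKM in Δ*rsrC*, against 48.8, 40.9 and 42.3 FPKM in Δ*ku70* (log2 0.60, SE 0.11, limma adjusted p = 0.00773). The most abundant other of these 7, *POX_b03032*, was at 183, 167 and 159 FPKM in Δ*rsrC* and 145, 138 and 115 FPKM in Δ*ku70*, and its difference did not pass (limma adjusted p = 0.0598). The calls of *POX_a01845*, *POX_c04698* and *POX_a00449* held in all 14 fits, which are this fit, 7 with another setting and 6 without 1 library each.

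GT41 had 19 tested genes in the annotation held, of which 7 (36.8%) were called lower and 1 (5.26%) higher, against the same 25.6% and 13.8%. The 7 include the member *POX_a00560*, chosen for being lower. The call of the higher one, *POX_a00839* (log2 0.42, SE 0.13, limma adjusted p = 0.0407), held in 6 of the 14 fits, with an adjusted p of 0.220 after TPM rescaling. Some lower calls did not hold in all 14 either. *POX_b02149* (limma adjusted p = 0.0466) was called in 4 fits and *POX_a01434* (limma adjusted p = 0.0163) in 11. *POX_a00560* was the one of the 7 lower genes with a log2 change of -1 or less, and the next was *POX_a01638*, at 17.6, 22.5 and 20.5 FPKM in Δ*rsrC*, against 39.6, 36.6 and 37.3 FPKM in Δ*ku70* (log2 -0.88, SE 0.12, limma adjusted p = 0.00310). The most abundant of these 19, *POX_b02041*, was at 603, 533 and 810.3 FPKM in Δ*rsrC* and 618, 781 and 443 FPKM in Δ*ku70*, where the strains overlapped. *POX_a00405* was the 1 gene that this annotation gave CBM63.

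Of the 60 genes, 3 had neighbouring gene numbers. *POX_e07313* was at 139, 148 and 181 FPKM in Δ*rsrC*, against 721, 689 and 699 FPKM in Δ*ku70*. *POX_e07314* was at 362, 377 and 465 FPKM in Δ*rsrC*, against 1529, 1254 and 1722 FPKM in Δ*ku70*. *POX_e07315* was at 467, 476 and 681 FPKM in Δ*rsrC*, against 1635, 1863 and 2525 FPKM in Δ*ku70*. Their Δ*rsrC* means were low shares of those in Δ*ku70*, at 22.2%, 26.7% and 26.96% in the order of their numbers, with log2 changes of -2.17, -1.90 and -1.89. In Δ*rsrC*, replicate 3 was the highest library for each of them. In Δ*ku70*, *POX_e07313* hardly varied, while *POX_e07315* was 1.54 times as high in replicate 3 as in replicate 1. None of the 3 had an annotation row.

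The genes around that run did not follow it. *POX_e07316*, next to it, was at 26.6, 27.4 and 26.3 FPKM in Δ*rsrC* and 24.1, 23.9 and 29.5 FPKM in Δ*ku70* (limma adjusted p = 0.726). *POX_e07312*, on the other side, was at 1.03 FPKM or less in every library and was not tested. *POX_e07317* was abundant but varied widely in Δ*ku70*, at 656, 599 and 659.9 FPKM in Δ*rsrC* and 441, 1223 and 1586 FPKM in Δ*ku70* (limma adjusted p = 0.329). *POX_e07319*, which lies 4 numbers beyond the run, stood higher, at 1249, 1118 and 994 FPKM in Δ*rsrC*, against 346, 358 and 755 FPKM in Δ*ku70* (log2 1.29, SE 0.30, limma adjusted p = 0.0161). Without Δ*rsrC* replicate 1, Δ*rsrC* replicate 2 or Δ*ku70* replicate 1 the adjusted p of *POX_e07319* was 0.0592, 0.0503 or 0.0512.

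Elsewhere the 60 genes were scattered. Within 5 gene numbers of each other, 4 loci held 9 of them and 51 stood alone. At the second locus, *POX_b02492* was at 82.5, 97.6 and 95.2 FPKM in Δ*rsrC*, against 179, 196 and 297 FPKM in Δ*ku70*. *POX_b02494* was at 74.98, 70.5 and 76.96 FPKM in Δ*rsrC*, against 153, 167 and 251 FPKM in Δ*ku70*. Both were highest in Δ*ku70* replicate 3 by a similar factor, 1.66 and 1.64 times the lowest Δ*ku70* library. The gene between them, *POX_b02493*, annotated as a Zn2Cys6 transcription factor, was at 24.7, 19.5 and 38.1 FPKM in Δ*rsrC* and 38.7, 61.5 and 38.1 FPKM in Δ*ku70* (limma adjusted p = 0.0723).

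At the third locus, *POX_c04371* was at 85.6, 84.7 and 67.7 FPKM in Δ*rsrC*, against 215, 195 and 172 FPKM in Δ*ku70*. *POX_c04375* was at 61.1, 64.3 and 63.1 FPKM in Δ*rsrC*, against 158, 149.6 and 175 FPKM in Δ*ku70*. Immediately beside *POX_c04371*, the scarce transcript of *POX_c04370* stood higher, at 6.60, 9.24 and 3.51 FPKM in Δ*rsrC*, against 1.05, 0.570 and 2.12 FPKM in Δ*ku70* (log2 1.71, SE 0.39, limma adjusted p = 0.0148). Without Δ*rsrC* replicate 1 its adjusted p was 0.0548, and without Δ*rsrC* replicate 2 it was 0.0534. On the far side of *POX_c04375*, *POX_c04377*, annotated as a C2H2 zinc-finger transcription factor, was lower at 31.4, 31.1 and 31.1 FPKM in Δ*rsrC*, against 42.2, 57.9 and 48.1 FPKM in Δ*ku70* (log2 -0.64, SE 0.13, limma adjusted p = 0.0109), and this call held in all 14 fits.

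At the fourth locus, *POX_d05829* was at 51.9, 53.6 and 53.3 FPKM in Δ*rsrC*, against 117, 104 and 106 FPKM in Δ*ku70*. *POX_d05832* was at 179, 163 and 182 FPKM in Δ*rsrC*, against 474, 404 and 340.4 FPKM in Δ*ku70*. The pair of genes between them was lower too, at much lower levels. *POX_d05831* was at 6.46, 7.44 and 12.4 FPKM in Δ*rsrC*, against 19.5, 20.3 and 25.7 FPKM in Δ*ku70* (log2 -1.26, SE 0.24, limma adjusted p = 0.00801, and 0.00316 to 0.0316 over the 14 fits). *POX_d05830* was at 6.54, 16.7 and 15.96 FPKM in Δ*rsrC*, against 24.9, 30.1 and 44.03 FPKM in Δ*ku70* (log2 -1.33, SE 0.36, limma adjusted p = 0.0272), but its adjusted p was 0.0603 after quantile normalisation, 0.0610 with Δ*ku70* replicate 2 left out and 0.0590 with Δ*ku70* replicate 3 left out. On the outer side, *POX_d05828* stood higher, at 104, 104 and 115 FPKM in Δ*rsrC*, against 71.4, 68.6 and 65.8 FPKM in Δ*ku70* (log2 0.64, SE 0.10, limma adjusted p = 0.00432).

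At 3 further places, chosen after the values were seen, a gene beside a lone member had fallen further than the member itself on the log2 scale. These members were *POX_f07409*, *POX_e06158* and *POX_e06891*. *POX_f07409* was at 89.1, 82.3 and 71.8 FPKM in Δ*rsrC*, against 185, 183 and 197 FPKM in Δ*ku70*. Its neighbours *POX_f07408*, at 4.25, 3.98 and 5.48 FPKM in Δ*rsrC*, against 14.8, 26.7 and 30.9 FPKM in Δ*ku70* (log2 -2.12, SE 0.27, limma adjusted p = 0.00270), and *POX_f07410*, at 27.4, 28.3 and 19.2 FPKM in Δ*rsrC*, against 76.7, 79.3 and 130.1 FPKM in Δ*ku70* (log2 -1.87, SE 0.24, limma adjusted p = 0.00273), were both lower. One number further, *POX_f07411* was higher, at 1159, 470.3 and 593 FPKM in Δ*rsrC*, against 359, 253 and 283 FPKM in Δ*ku70* (log2 1.21, SE 0.33, limma adjusted p = 0.0266). Its Δ*rsrC* replicate 1 stood far above the other libraries, and its adjusted p was 0.0763 with Δ*ku70* replicate 2 left out and 0.0513 with Δ*ku70* replicate 3 left out.

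Around *POX_e06158* the fall ran over several genes. *POX_e06158* itself was at 41.8, 30.7 and 20.6 FPKM in Δ*rsrC*, against 125, 132 and 157 FPKM in Δ*ku70*, with Δ*rsrC* replicate 1 the highest of its strain and Δ*ku70* replicate 3 the highest of the other. *POX_e06157* was at 25, 10.2 and 9.49 FPKM in Δ*rsrC*, against 71.8, 87.7 and 171 FPKM in Δ*ku70* (log2 -2.83, SE 0.44, limma adjusted p = 0.00442). *POX_e06156* was at 53.4, 34.3 and 16.5 FPKM in Δ*rsrC*, against 81.5, 116 and 154 FPKM in Δ*ku70* (log2 -1.83, SE 0.42, limma adjusted p = 0.0156). Both had the same highest library in each strain as *POX_e06158*. *POX_e06154* (log2 -0.97, SE 0.18, limma adjusted p = 0.00796) and *POX_e06153* (log2 -1.72, SE 0.18, limma adjusted p = 0.00156) were lower as well, and the calls of these 4 genes held in all 14 fits. *POX_e06155* was listed at 0 in all 6 libraries. On the other side, *POX_e06159* was at 1.14 FPKM or less in every library. Beside *POX_e06891*, with a log2 change of -1.12, *POX_e06892* was at 11.1, 9.41 and 12.98 FPKM in Δ*rsrC*, against 28.3, 46.7 and 17.5 FPKM in Δ*ku70* (log2 -1.29, SE 0.33, limma adjusted p = 0.0212). Its adjusted p was 0.0650, 0.0696 and 0.0582 without Δ*rsrC* replicate 1, Δ*rsrC* replicate 2 and Δ*ku70* replicate 1, and 0.0501 with the replicate block.

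**Figure D3:**
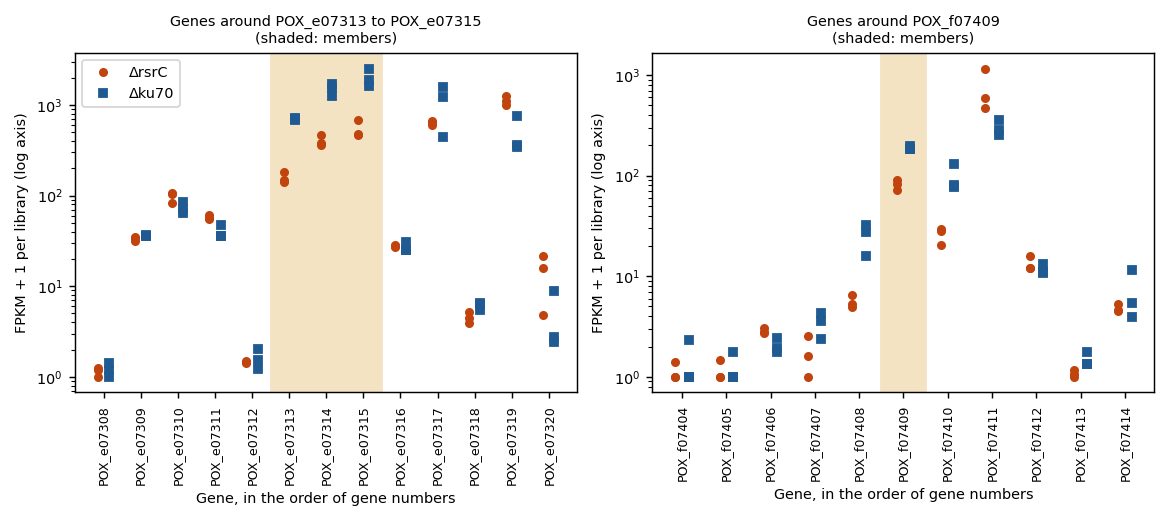
FPKM + 1 (log axis) of each library for the genes around *POX_e07313* to *POX_e07315* (left) and around *POX_f07409* (right), in the order of gene numbers, with circles for Δ*rsrC*, squares for Δ*ku70* and shading for members of the 60. On the left the 3 shaded genes are the ones with a wide gap, at 22.2% to 26.96% of the Δ*ku70* mean, while *POX_e07319* is higher in Δ*rsrC*, and on the right *POX_f07408* and *POX_f07410* lie lower on both sides of the member.

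The steepest fall by the ranking was that of *POX_c04142*, a gene for a hypothetical protein, at 24.6, 20.4 and 18.3 FPKM in Δ*rsrC*, against 125, 124 and 126 FPKM in Δ*ku70*. The Δ*ku70* libraries were within a factor of 1.01 of each other, the narrowest spread among the 60, and the Δ*rsrC* mean was 16.8% of theirs. Percentages in brackets give the Δ*rsrC* mean as a share of the Δ*ku70* mean. *POX_a00316* was at 35.5, 30 and 23.6 FPKM in Δ*rsrC*, against 158, 154 and 137 FPKM in Δ*ku70* (19.8%). *POX_h09657* was at 24.98, 32.5 and 26.9 FPKM in Δ*rsrC*, against 122, 143 and 149 FPKM in Δ*ku70* (20.4%). For both, as for *POX_c04142*, the lowest Δ*ku70* library was more than 3 times the highest Δ*rsrC* library. *POX_g08671* was at 69.3, 55.9 and 53.2 FPKM in Δ*rsrC*, against 256, 241 and 245 FPKM in Δ*ku70* (24.04%). *POX_a00469* was at 51.3, 54.8 and 41.4 FPKM in Δ*rsrC*, against 186, 196 and 215 FPKM in Δ*ku70* (24.7%). *POX_c03484* was at 54.5, 47.99 and 69.4 FPKM in Δ*rsrC*, against 261, 266 and 169 FPKM in Δ*ku70* (24.7%). All of these fell to under 25% of the Δ*ku70* mean.

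*POX_d04874* fell to 17.6% of the Δ*ku70* mean, second to *POX_c04142*, but with the widest Δ*ku70* spread of the list. It was at 41.4, 33.6 and 52.6 FPKM in Δ*rsrC*, against 329.6, 239.6 and 154 FPKM in Δ*ku70*, so the highest Δ*ku70* library was 2.14 times the lowest. Its rank of 10 uses Δ*ku70* replicate 3, the lowest of the 3. *POX_h09602* was at 37.5, 38.5 and 39.5 FPKM in Δ*rsrC*, against 159.9, 168 and 108 FPKM in Δ*ku70*. *POX_f07846* was at 38.5, 34.3 and 36.2 FPKM in Δ*rsrC*, against 156, 101 and 108 FPKM in Δ*ku70*. In these, 1 or 2 Δ*ku70* libraries lay close to 100 FPKM, while the Δ*rsrC* libraries stayed close together. *POX_c04553*, at 49.2, 49.01 and 54.4 FPKM in Δ*rsrC*, against 153, 132 and 149.5 FPKM in Δ*ku70*, was even in both strains.

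Among the other genes of the first 20 ranks, 3 were of middling abundance. *POX_a01890* was at 147, 143 and 185 FPKM in Δ*rsrC*, against 602, 631 and 515 FPKM in Δ*ku70* (27.2%). *POX_g08997* was at 233, 271 and 236 FPKM in Δ*rsrC*, against 662, 788.8 and 851 FPKM in Δ*ku70* (32.1%). *POX_h09414* was at 97.3, 82.5 and 106 FPKM in Δ*rsrC*, against 259.7, 377 and 270.4 FPKM in Δ*ku70* (31.5%), where Δ*ku70* replicate 2 stood above the others. Each kept a gap between its highest Δ*rsrC* and lowest Δ*ku70* library of more than 2-fold.

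The most abundant of the 60 was *POX_a00825*, a hypothetical protein gene at 2355, 3194 and 2724 FPKM in Δ*rsrC*, against 6040.4, 7272 and 9041 FPKM in Δ*ku70*. It was the gene of rank 15 by mean level in Δ*ku70* and of rank 69 in Δ*rsrC*, so it remained an abundant transcript at 37.01% of its parental mean. *POX_c04754* was at 947, 1169.8 and 991 FPKM in Δ*rsrC*, against 2280.0, 2306 and 2332 FPKM in Δ*ku70*. *POX_c04336* was at 764, 882 and 859 FPKM in Δ*rsrC*, against 1596, 1777 and 2414 FPKM in Δ*ku70*. The Δ*ku70* libraries of *POX_c04754* lay within a factor of 1.02, while the highest of *POX_c04336* was 1.51 times the lowest. *POX_b02603* was at 333, 334 and 311 FPKM in Δ*rsrC*, against 892, 712 and 635 FPKM in Δ*ku70* (43.7%). Together with the run from *POX_e07313* to *POX_e07315* and with *POX_g08997*, *POX_a01890* and *POX_a00560*, these were the 10 highest genes of the list in Δ*ku70*.

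Within the list the median fall was much the same at every level. The ranking set the same cut on the fall at all levels, so this follows in part from the choice of the genes. The 5 genes of at least 1000 FPKM in Δ*ku70* had a median of 37.0% of the parental mean in Δ*rsrC* (26.7% to 44.9%). The 25 genes of 200 to 1000 FPKM had a median of 36.8% (17.6% to 48.9%), and the 30 genes under 200 FPKM had 37.4% (16.8% to 48.5%).

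Several genes differed among the Δ*ku70* libraries more than the rest. After *POX_d04874*, the widest were *POX_h09877*, *POX_b02492*, *POX_b02494* and *POX_f08186*. *POX_h09877* was at 201, 163 and 171 FPKM in Δ*rsrC*, against 377, 466 and 638 FPKM in Δ*ku70*, a factor of 1.69 within Δ*ku70*. *POX_f08186* was at 61.6, 56.05 and 61.8 FPKM in Δ*rsrC*, against 119, 189 and 189.8 FPKM in Δ*ku70*, a factor of 1.59. *POX_h09877* was highest in Δ*ku70* replicate 3, and *POX_f08186* was low in replicate 1 alone. The narrowest were *POX_c04142*, *POX_c04754*, *POX_e07313*, *POX_g08671* and *POX_a00459*, all within a factor of 1.07. In 13 of the 60 the highest Δ*ku70* library exceeded 1.5 times the lowest, and in 21 it was under 1.2 times. The median coefficient of variation was 10.9% in Δ*rsrC* and 12.1% in Δ*ku70*, close to the 10.1% in Δ*rsrC* and 11.2% in Δ*ku70* of the other abundant genes.

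Of the Δ*ku70* libraries, replicate 3 was the highest for 31 of the 60, replicate 1 for 18 and replicate 2 for 11. Of the other abundant genes, 48.0% were highest in replicate 3 and 26.0% in each of the others. In Δ*rsrC*, replicate 2 was the highest for 26 (43.3%), replicate 3 for 24 (40%) and replicate 1 for 10 (16.7%). Replicate 1 was the lowest for 29 (48.3%). Of the other abundant genes, 40.3%, 30.4% and 29.3% were highest in Δ*rsrC* replicates 2, 3 and 1, in that order. In replicate 1, 41.6% of them were lowest. The genes of the list thus did not share 1 profile over the libraries.

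Of the genes not yet named, a first group was highest in Δ*ku70* replicate 3. *POX_f07442* was at 64.3, 88.9 and 53.4 FPKM in Δ*rsrC*, against 167, 183 and 264 FPKM in Δ*ku70*. *POX_e06803* was at 44.4, 40.8 and 45.8 FPKM in Δ*rsrC*, against 113, 105 and 131 FPKM in Δ*ku70*. *POX_e06573* was at 160.0, 183 and 164 FPKM in Δ*rsrC*, against 409, 411 and 462 FPKM in Δ*ku70*. In these the third Δ*ku70* library stood apart while the other two lay within 10% of each other. *POX_e07055* was at 62.1, 89.2 and 61.8 FPKM in Δ*rsrC*, against 178, 188 and 209 FPKM in Δ*ku70*. *POX_e06906* was at 47.8, 58.5 and 57.8 FPKM in Δ*rsrC*, against 109, 133 and 144 FPKM in Δ*ku70*. *POX_d05442* was at 98.02, 107 and 94.5 FPKM in Δ*rsrC*, against 194, 229.6 and 264 FPKM in Δ*ku70*. Here the Δ*ku70* libraries were spread more evenly. *POX_b02139* was at 79.4, 87.1 and 75.7 FPKM in Δ*rsrC*, against 177, 174 and 196 FPKM in Δ*ku70*. *POX_f07463* was at 46.1, 50.7 and 57.1 FPKM in Δ*rsrC*, against 118, 113 and 141 FPKM in Δ*ku70*. In both, the lowest Δ*ku70* library was more than 1.9 times the highest of Δ*rsrC*. *POX_f07751*, at 83.6, 91.8 and 92.4 FPKM in Δ*rsrC*, against 181, 178 and 194 FPKM in Δ*ku70*, kept 48.4% of its parental mean. *POX_a01842*, at 43.6, 51.3 and 56.3 FPKM in Δ*rsrC*, against 104, 109 and 149.9 FPKM in Δ*ku70*, was near 100 FPKM in the other Δ*ku70* libraries.

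Another group was highest in Δ*ku70* replicate 1. *POX_d05940* was at 170.4, 198 and 182 FPKM in Δ*rsrC*, against 504, 432 and 447 FPKM in Δ*ku70*. *POX_c04203* was at 75.7, 84.7 and 62.8 FPKM in Δ*rsrC*, against 216, 180.3 and 211 FPKM in Δ*ku70*. Their Δ*rsrC* means were 39.8% and 36.8% of those in Δ*ku70*. *POX_g09270* was at 109, 123 and 118 FPKM in Δ*rsrC*, against 302, 284 and 249 FPKM in Δ*ku70*. *POX_b02763* was at 85.5, 116 and 95.6 FPKM in Δ*rsrC*, against 257, 229 and 244 FPKM in Δ*ku70*. In these the Δ*ku70* libraries stayed within a factor of 1.3. *POX_d06079* was at 41.9, 44.2 and 48.9 FPKM in Δ*rsrC*, against 145, 112 and 101 FPKM in Δ*ku70*. *POX_d05212* was at 39.2, 60.7 and 63.6 FPKM in Δ*rsrC*, against 151, 126 and 118 FPKM in Δ*ku70*. Both had Δ*ku70* replicate 3 as their lowest parental library.

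Other genes were highest in Δ*ku70* replicate 2. *POX_e06772* was at 32.6, 35.7 and 42.2 FPKM in Δ*rsrC*, against 101, 157 and 136 FPKM in Δ*ku70*. *POX_e06275* was at 54.5, 61 and 45.9 FPKM in Δ*rsrC*, against 132, 187 and 119 FPKM in Δ*ku70*. In both, that library was more than 1.5 times the lowest parental one. *POX_f08308* was at 60.7, 71.9 and 73.7 FPKM in Δ*rsrC*, against 187, 216 and 171 FPKM in Δ*ku70*. *POX_f08407* was at 43.95, 42.2 and 49.8 FPKM in Δ*rsrC*, against 113, 135 and 117 FPKM in Δ*ku70*. Their Δ*rsrC* means were 35.9% and 37.2% of those in Δ*ku70*. *POX_e06179* was at 71.2, 81.9 and 78.4 FPKM in Δ*rsrC*, against 215, 221 and 196 FPKM in Δ*ku70*. *POX_e06891* was at 56.5, 61.9 and 59.1 FPKM in Δ*rsrC*, against 133, 144 and 115 FPKM in Δ*ku70*. These 4 had narrower parental ranges, of 1.13 to 1.26 times. *POX_g08577* was at 59.8, 69.8 and 88.8 FPKM in Δ*rsrC*, against 194, 211 and 163 FPKM in Δ*ku70*, with Δ*rsrC* replicate 3 above the others.

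The last ranks inside and the first outside the list were close. *POX_e06643*, at rank 58, had a ratio of 1.80 with 89.5, 105 and 100.1 FPKM in Δ*rsrC*, against 256, 219 and 190.4 FPKM in Δ*ku70*. *POX_d05221*, at rank 59 and 1.79, was at 143, 142 and 161 FPKM in Δ*rsrC*, against 289.6, 309 and 313 FPKM in Δ*ku70*. *POX_d05759*, at rank 60 and 1.78, was at 98.96, 107 and 93.5 FPKM in Δ*rsrC*, against 192, 195 and 241 FPKM in Δ*ku70*. These 3 kept 44.3%, 48.9% and 47.6% of their Δ*ku70* means. Just outside, *POX_e06965* had a ratio of 1.76 with 98.9, 108 and 98.7 FPKM in Δ*rsrC*, against 192, 204 and 209.6 FPKM in Δ*ku70*. *POX_e07112*, at rank 62 and 1.75, was at 72.1, 94.3 and 85.99 FPKM in Δ*rsrC*, against 167, 173 and 170.1 FPKM in Δ*ku70*. No gap separated the list from what followed, so its length is a matter of the choice of 60.

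**Figure D4:**
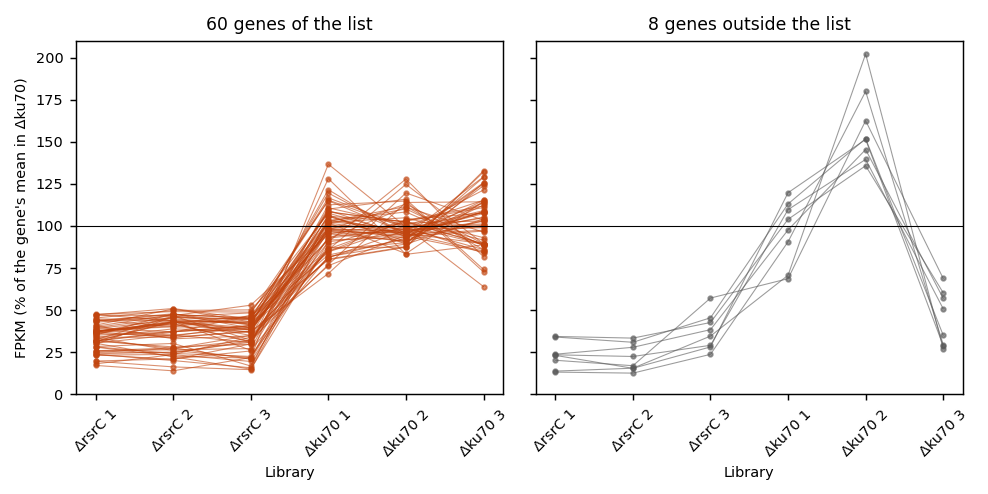
FPKM of each library as a percent of the gene's own mean in Δ*ku70* (vertical) for the 60 genes (left) and for 8 abundant genes outside the list whose mean fell at least as far as the members' median (right), with the Δ*rsrC* libraries to the left of the Δ*ku70* libraries and each line joining the values of 1 gene. The 60 genes hold no common order of the Δ*ku70* libraries. All 8 genes on the right, which their spread kept out of the list, peak in Δ*ku70* replicate 2.

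The ranking, which uses the extremes of each strain, passed over abundant genes whose mean fell as far. Outside the list, 42 candidates had a Δ*rsrC* mean at or under 48.9% of the Δ*ku70* mean, and 8 were at or under the members' median of 37.1%. The lowest was *POX_c03702*, annotated as an MFS-type transporter, at 71.97, 68.6 and 129.5 FPKM in Δ*rsrC*, against 494, 982 and 161 FPKM in Δ*ku70* (16.5%). *POX_a00191* was at 86.4, 97.2 and 217 FPKM in Δ*rsrC*, against 444, 1268 and 170.4 FPKM in Δ*ku70* (21.3%), and *POX_c04082*, annotated as a putative oleate delta-12 desaturase, at 114, 109 and 141 FPKM in Δ*rsrC*, against 532, 676 and 246 FPKM in Δ*ku70* (25%). The 8 genes shared a profile. They were picked for a far fall in mean with a ratio of extremes too low for the list. A wide spread among the libraries of a strain therefore follows from their choice, while the ranking kept such genes out of the list. Of the 8, 8 were highest in Δ*ku70* replicate 2, 7 were lowest of the Δ*ku70* libraries in replicate 3, and 8 were highest of the Δ*rsrC* libraries in replicate 3. Among all abundant genes outside the list, which were not picked in this way, these shares were 26.0%, 26.8% and 30.4%, in the same order. Whether the profile differs from what the choice brings was not tested. The rest of the 8 were *POX_b01936*, *POX_e06898*, *POX_d06049*, *POX_b01935* and *POX_e06874*, at 22.2% to 36.8%.

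The genes were also chosen and described in different libraries. In each of 9 rounds, a list of 60 was chosen without 1 library of each strain and then read in that left-out pair. The rounds reuse the same libraries and many of the same genes, so they are not independent of each other. Each round reads its own list in 1 library of each strain, so it is no test of the 60 genes described here. In 8 rounds, 57 to 60 of the 60 were lower in the left-out Δ*rsrC* library than in the left-out Δ*ku70* library, with 36 to 48 genes shared with the list described here. When replicate 3 of both strains was left out, 45 of 60 were lower, 25 genes were shared and the median ratio of Δ*ku70* over Δ*rsrC* was 1.77, against 2.31 to 2.70 in the other rounds. Among the other candidates 43.9% to 55.2% were lower in the left-out pair, at a median ratio of 0.94 to 1.05.

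The head of the list was kept when 1 library was left out, while its end changed. Such an omission can only raise or keep a gene's ratio, so genes far above the cut were likely to stay. With any 1 of the 6 libraries left out of the ranking, 34 of the 60 were always chosen again, among them all of ranks 1 to 30 and 4 of the last 30. Leaving out Δ*ku70* replicate 3 moved the list most, and 39 were then chosen again, against 50 to 55 without another library. Other settings also changed which genes passed the minimum. Over all 11 settings tried, *POX_c04142*, at rank 1, was chosen again in 9. Its lowest Δ*ku70* library, at 124 FPKM, could not pass the minimum of 200 FPKM that was tried. After TPM rescaling, every gene of the list that passed the minimum was chosen again. The losses of this gene thus came from the minimum and say nothing of how firm its fall was.

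The genes next to the 60 were examined as well. The abundant ones among them had been candidates themselves, so a neighbour that fell far enough entered the list and is not counted here, and the shares below depend on the ranking in that way. Beside the 60 lay 115 other genes, of which 95 were tested. Of these, 30 (31.6%) were called lower and 9 (9.47%) higher, against 25.6% and 13.8% of all tested genes, and their median log2 change was -0.14, against -0.13. With a log2 change of -1 or less, 12 (12.6%) were called lower, against 5.62% of all tested genes, beside 11 of the 60. At a distance of 2 gene numbers these shares were 29.1% and 12.6%, and at distances of 3 to 5 they were 21.7% to 23.3% and 5.10% to 6.52%. Over the 14 fits the share of neighbours called lower was 17.9% to 45.3%, against 15.9% to 43.1% of all tested genes. It turned to the other side of the share over all genes without Δ*ku70* replicate 3, at 24.2% against 25.7%. Without Δ*rsrC* replicate 1, 17 of the 95 neighbours (17.9%) were called lower, against 15.9%. Those with a log2 change of -1 or less made up 9.47% to 18.9% over the 14 fits, against 3.71% to 10.5%. Whether the neighbours differ from all tested genes was not tested.

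**Figure D5:**
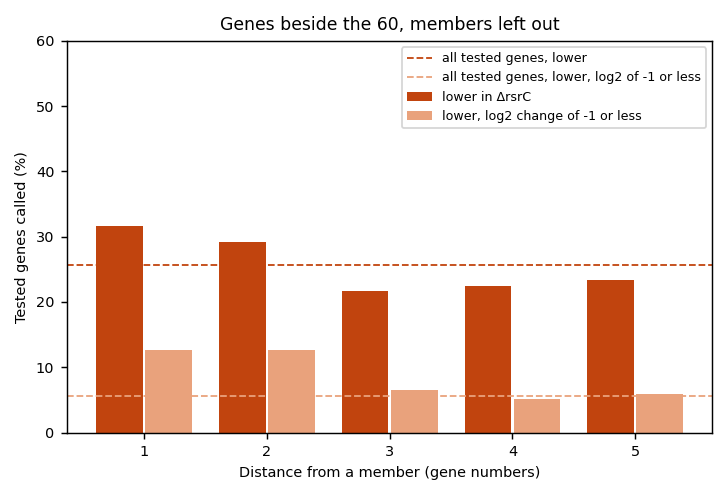
Share of tested genes (percent) called lower in Δ*rsrC* by limma (dark bars), and called lower with a log2 change of -1 or less (light bars), by distance from a member in gene numbers (horizontal), with the members themselves left out. Dashed lines give the shares over all tested genes, 25.6% and 5.62%, and the light bars reach 12.6% at distances 1 and 2 and 5.10% to 6.52% at distances 3 to 5.

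The most abundant of these 12 neighbours was *POX_f07847*, beside *POX_f07846*. It was at 1253, 1361 and 1166 FPKM in Δ*rsrC*, against 3052, 3809.7 and 2327 FPKM in Δ*ku70* (log2 -1.25, SE 0.19, limma adjusted p = 0.00429). At rank 68 it would have been among the next genes to enter the list. *POX_f08185*, beside *POX_f08186*, was at 3.54, 2.90 and 3.14 FPKM in Δ*rsrC*, against 10.1, 9.08 and 10.4 FPKM in Δ*ku70* (log2 -1.38, SE 0.15, limma adjusted p = 0.00188). *POX_f08307*, beside *POX_f08308*, was at 17.2, 19.1 and 14.4 FPKM in Δ*rsrC*, against 41.05, 59.6 and 34.1 FPKM in Δ*ku70* (log2 -1.33, SE 0.22, limma adjusted p = 0.00511). The calls of these 3 held in all 14 fits. Other neighbours of this kind were *POX_h09415* (log2 -1.12, SE 0.21, limma adjusted p = 0.00784), *POX_c03483*, *POX_e06892* and *POX_a01891*. The limma adjusted p of *POX_c03483* was 0.0153, and 0.0572 without Δ*rsrC* replicate 1. That of *POX_a01891* was 0.0196, and it was 0.0654, 0.0656 and 0.0550 without Δ*rsrC* replicate 1, Δ*rsrC* replicate 2 and Δ*ku70* replicate 1, and 0.0516 with the replicate block.

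A smaller number of neighbours stood higher. *POX_d05939*, beside *POX_d05940*, was at 227, 190.4 and 151 FPKM in Δ*rsrC*, against 74.3, 75.1 and 104 FPKM in Δ*ku70* (log2 1.16, SE 0.20, limma adjusted p = 0.00597). *POX_g08998*, beside *POX_g08997*, was at 48.6, 46.3 and 44.95 FPKM in Δ*rsrC*, against 17.9, 20.7 and 26.1 FPKM in Δ*ku70* (log2 1.09, SE 0.15, limma adjusted p = 0.00304). *POX_h09876*, beside *POX_h09877*, was at 279, 227 and 223 FPKM in Δ*rsrC*, against 141, 126 and 112 FPKM in Δ*ku70* (log2 0.94, SE 0.14, limma adjusted p = 0.00393). These 3 calls held in all 14 fits.

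By the letter of the gene ID, which runs from a to h with a few genes under u, the list was spread over all 8 main groups. It held 13 of the 244 abundant genes of group e (5.33%), and 1.95% to 4.94% of those of the other 7.

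Lists of annotated genes give the setting of the 60. They hold genes that the study called in at least 1 of its mutants, as far as the rows held here go, so their counts are not independent of these libraries. Of all tested genes, 25.6% were called lower and 13.8% higher. Of 272 tested genes for carbohydrate-active enzymes, 62 were called lower (22.8%) and 51 higher (18.75%), with a median log2 change of -0.03. In some other fits their lower share stood above that of all tested genes, at 18.0% against 16.6% with the replicate block. Of the genes for carbohydrate-active enzymes 55 were abundant and 3 were in the list. Of 27 tested sugar transporter genes, 9 (33.3%) were called lower and 2 (7.41%) higher, 4 were abundant and 0 were in the list. Of 175 tested transcription factor genes, 83 (47.4%) were called lower and 7 (4%) higher, with a median log2 change of -0.41. Of the 21 abundant ones 0 were in the list, which took 3.27% of all candidates. At that share, counts of 0 to 3 members in sets of this size say little about the classes. The starch-degrading genes that the study follows were not among the 60 either. Of these 8, 6 were abundant, 1 was called higher and 3 were called lower, the glucoamylase genes *POX_a00573* (log2 -1.08, SE 0.23) and *POX_b02418* (log2 -1.50, SE 0.29), which the ranking left out, and the alpha-glucosidase gene *POX_e06687* (log2 -1.16, SE 0.22).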

How the data were processed

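Polyadenylated RNA of mycelium was sequenced in 3 libraries of Δ*rsrC* and 3 of Δ*ku70*, grouped by the titles and genotype labels. The authors deposited 1 table of FPKM per library for 9822 genes, with replicates not pooled. The study's methods name BWA, Bowtie2, RSEM and NOISeq, and the submitters' processing notes name bcl2fastq and HISAT2, with no role given. The study names HP7-1 as the strain whose genome was used, with a GenBank entry, but not which assembly version the tables follow, so the RefSeq gene table (assembly ASM172317v3) was used for names, gene order and overlap only. The tables hold no counts, so absolute depth is unknown and no interval or detection limit was computed.

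Values were transformed as log2(FPKM + 1), which understates the change of low genes. Genes that averaged 1 FPKM or more over the 6 libraries were tested with limma 3.58.1 in R 4.3.3 (lmFit, then eBayes with trend, two-sided, Benjamini-Hochberg over all 8605 genes). The script was tested on simulated data. A gene was called at an adjusted p under 0.05. The 14 fits mentioned are this one and 13 alternatives, which changed the pseudocount (0.1), the scaling (TPM, median-ratio, quantile), the filter, the trend, a replicate block, or left out each of the 6 libraries. Relative depth was the most frequent ratio of low FPKM values to those of Δ*ku70* replicate 1. The genes and lists were chosen with earlier results of these data known. Named with values were the first 20 ranks, the 10 highest in Δ*ku70*, the 5 with the widest and the 5 with the narrowest Δ*ku70* range, annotated and adjacent members, ranks 58 to 62, and genes not chosen again under an alternative. Annotation came from rows of the study's supplement, of which only a part was held, and from nothing else. A planned comparison with relatives by protein sequence was not run, as no protein sequences were used here.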

Additional observations from a re-analysis of the deposited data

How the results depend on the processing

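All 60 genes were lower and called in each of the 13 alternative fits, as their choice makes likely. Their median log2 change was -1.62 after TPM rescaling and -1.27 with median-ratio scaling, where the median of all genes was -0.35 and 0.00. TPM rescaling called 3655 genes lower and 745 higher, among them 661 other abundant genes lower and 208 higher and 5 neighbours higher. Median-ratio scaling called 222 other abundant genes lower and 14 neighbours higher. Replicate numbers did not pair the libraries (correlation of deviations 0.00, -0.13 and -0.24), and with the replicate block 2213 genes were called, 1428 lower and 785 higher, with 204 other abundant genes lower and 206 higher. Without 1 library in turn, 2126 to 3476 genes were called (1364 to 2205 lower, 762 to 1271 higher), 206 to 357 other abundant genes lower and 209 to 364 higher, and 17 to 24 neighbours lower and 4 to 14 higher. Without Δ*rsrC* replicate 1 there were 2126 calls, 17 neighbours lower and 4 higher, and 206 other abundant genes lower and 235 higher. Without Δ*rsrC* replicate 2, 768 genes, 5 neighbours and 209 other abundant genes were higher and 241 other abundant genes lower. Without Δ*ku70* replicate 1, 232 other abundant genes were lower and 230 higher, without Δ*ku70* replicate 2, 232 were higher, and without Δ*ku70* replicate 3, 14 neighbours were higher. Of the list, 34 genes were chosen again at a minimum of 50 FPKM and 21 at 200 FPKM, which were all its genes that passed that minimum. After TPM rescaling it was 43, again all that passed the minimum, by ratio of means 46, and 39 to 55 without 1 library, fewest without Δ*ku70* replicate 3. The choice of genes without 1 library of each strain was added after the data were seen. Absolute depth is unknown, so no limit can be put on the lowest values. The planned comparison of relatives by protein sequence was not run.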
